A study of Mus musculus with 6 samples.

Results

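The endothelial genes described here are Cldn5, Flt1, Vwf, Pltp, Pecam1, Cdh5, Tek, Kdr, Ly6c1 and Esam, 10 of the 15388 genes in the deposited table. They were chosen by symbol as markers of the cells that line blood vessels, with the difference between the 2 fractions of these animals already known, so that this difference is given below as a description with no test. RNA was measured in the hippocampus of 3 mice numbered 201, 207 and 208, which gave 1 Input and 1 Positive library each. All 3 mice were Cx3cr1-Cre/Ert2+; NuTRAP+, had received tamoxifen and were about 3 months old, and their sex is not given in the labels. In these mice the Cx3cr1 promoter, which is active in microglia and other macrophages, drives an inducible Cre recombinase, and Cre switches on the NuTRAP construct, which puts a GFP-tagged protein on the ribosomes of the recombined cell. In translating ribosome affinity purification (TRAP), part of the cleared homogenate was kept as Input and the ribosomes caught by an antibody to GFP formed the Positive fraction. No library from mice without Cre or without tagged ribosomes was analysed here, and the study names both cervical dislocation and perfusion for tissue collection without saying which was used for these mice.

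Endothelial cells of the brain form the blood-brain barrier: tight and adherens junctions close the gaps between neighbouring cells, and transporters in the membrane decide which molecules pass. Their growth and stability depend on receptor tyrosine kinases for the vascular endothelial growth factors and the angiopoietins. Pericytes and smooth muscle cells, together called mural cells, sit on the outside of the same vessels within a shared basement membrane.

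The libraries held from 14879734 to 17757918 reads. Values are given as scaled reads, that is, estimated reads per gene divided by the size factor of the library, and log2 ratios of Positive over Input within an animal were formed after adding a pseudocount of 1. The 10 genes together took from 0.0171% to 0.0196% of the reads of the Input libraries. In the Positive libraries their share was 0.0714% in animal 201, 0.0554% in 207 and 0.0353% in 208. Targeted microglial RNA was in the Positive fraction: all 10 microglial markers were higher there, with Csf1r, the receptor for colony-stimulating factor 1, at a log2 fold change of 4.63 ± 0.14 (SE, edgeR adjusted p = 1.94e-10).

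All 10 endothelial genes had more scaled reads in the Positive than in the Input library of each of the 3 animals, and in each of the 10 the lowest Positive library lay above the highest Input library. Of the 15344 genes tested, 34.9% were higher in Positive in all 3 animals and 28.9% had all Positive libraries above all Input libraries. Since the genes were chosen with this contrast known, nothing is read from the count. Both fractions of an animal came from the same homogenate, so their ratio does not measure endothelial cell number or RNA per cell in the tissue. How RNA of these genes came to be in the Positive fraction was not tested.

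Among the junction and surface-contact genes, Cldn5 (chr16:18776847-18778260, forward strand, build mm10) encodes claudin-5, the main sealing protein of endothelial tight junctions. Its Input libraries held 268, 259 and 323 scaled reads in animals 201, 207 and 208, and its Positive libraries 1223, 911 and 622. The mean log2 ratio was 1.65 ± 0.64 (SD, n = 3), and the gap between the fractions was narrowest in animal 208, at 1.92-fold against 4.55-fold in animal 201. Cdh5 (chr8:104101625-104144511, forward strand) encodes VE-cadherin, the adherens junction cadherin of endothelium. It had 124, 81 and 114 scaled reads in Input and 491, 381 and 250.3 in Positive, with log2 ratios of 1.97, 2.22 and 1.12. The fractions did not overlap, and animal 207 had both the lowest Input value and the highest ratio. Pecam1 (chr11:106654217-106750628, reverse strand) encodes CD31, an adhesion protein at endothelial cell contacts that platelets and some leukocytes also carry. Its scaled reads were 214, 148 and 187 in Input and 1013, 828 and 604 in Positive. The log2 ratios were 2.24, 2.48 and 1.69, the highest of the 10 genes in animals 207 and 208. Esam (chr9:37528078-37538319, forward strand) encodes an adhesion molecule of endothelial junctions. It had 131, 127 and 109.9 scaled reads in Input and 485, 368 and 239 in Positive, and its log2 ratios of 1.88, 1.53 and 1.12 had the smallest spread of the 10 genes, with an SD of 0.38.

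The 3 growth factor receptors had the widest spread of log2 ratios between animals among the 10 genes. Flt1 (chr5:147561604-147726011, reverse strand) encodes VEGF receptor 1, which binds VEGF-A, VEGF-B and placental growth factor. It had 446, 392 and 581 scaled reads in Input and 2581, 1866 and 1215 in Positive, and its log2 ratios were 2.53, 2.25 and 1.06. The Input of animal 208 was the highest of the 3 and the Positive of animal 208 the lowest, so that the fractions were closest there. Kdr (chr5:75932827-75978458, reverse strand) encodes VEGF receptor 2, the main signalling receptor for VEGF-A. Its Input libraries held 108, 152 and 168 scaled reads and its Positive libraries 503, 398 and 214. In animal 208 the Positive library was only 1.28-fold over the Input, against 4.61-fold in animal 201, and the mean log2 ratio of 1.31 ± 0.93 (SD, n = 3) therefore carried a wide error. Tek (chr4:94739289-94874976, forward strand) encodes TIE2, the receptor for the angiopoietins. Its scaled reads were 74.5, 82.7 and 132 in Input and 637, 440.4 and 306 in Positive. Tek had the highest single ratio of the 10 genes, 3.08 in animal 201, and the widest spread, with log2 ratios of 3.08, 2.40 and 1.21 and an SD of 0.95.

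The promoters of these 3 receptors and of Cldn5 are shown as a description of their letters. ETS transcription factors bind sites with a GGAA core in endothelial promoters. A part of such sites in the difference between the fractions was not tested. RefSeq windows on GRCm38.p6, the same assembly as mm10, were matched by symbol for 6 of the 10 genes (Pltp, Tek, Kdr, Flt1, Ly6c1 and Cldn5) and not for Vwf, Pecam1, Cdh5 and Esam. Each line gives the 250 bases before the annotated start, 5′ to 3′ on the strand of the gene, and capitals mark GGAAG or its reverse complement CTTCC.
Flt1, chr5:147726012-147726261, reverse strand: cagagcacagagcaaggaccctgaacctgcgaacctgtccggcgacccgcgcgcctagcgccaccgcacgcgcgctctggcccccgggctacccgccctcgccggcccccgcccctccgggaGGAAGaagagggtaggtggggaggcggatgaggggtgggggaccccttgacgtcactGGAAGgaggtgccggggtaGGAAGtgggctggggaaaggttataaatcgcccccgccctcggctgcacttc
Kdr, chr5:75978456-75978705, reverse strand: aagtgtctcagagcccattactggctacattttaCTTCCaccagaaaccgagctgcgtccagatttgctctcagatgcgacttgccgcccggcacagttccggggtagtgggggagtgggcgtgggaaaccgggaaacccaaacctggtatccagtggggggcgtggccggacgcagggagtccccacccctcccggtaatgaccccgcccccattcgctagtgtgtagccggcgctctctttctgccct
Tek, chr4:94739039-94739288, forward strand: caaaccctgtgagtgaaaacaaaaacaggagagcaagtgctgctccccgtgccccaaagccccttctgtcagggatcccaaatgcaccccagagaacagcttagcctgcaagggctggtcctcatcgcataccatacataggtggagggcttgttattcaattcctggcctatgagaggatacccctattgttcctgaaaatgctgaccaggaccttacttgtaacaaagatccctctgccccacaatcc
Cldn5, chr16:18776597-18776846, forward strand: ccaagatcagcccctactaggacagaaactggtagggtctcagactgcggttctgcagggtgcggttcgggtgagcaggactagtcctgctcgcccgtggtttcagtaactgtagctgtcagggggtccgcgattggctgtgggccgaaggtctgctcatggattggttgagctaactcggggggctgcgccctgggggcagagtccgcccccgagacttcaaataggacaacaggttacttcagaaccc
The Flt1 window held 3 such matches and the sequence TATAAA or its reverse complement 1 time, the Kdr window held 1 GGAAG match, and the Tek and Cldn5 windows held 0. Searched on both strands, GGAAG was in 64.1% of 32851 windows of all genes and in 65.7% of the 108 windows of other endothelial genes. Of the 7 windows of the 6 members with a window, 4 held it (57.1%). A GC box (GGGCGG, both strands) was in 32.7% of all windows and in 58.3% of those of other endothelial genes, and TATAAA was in 12.4% and 7.41%. All windows covered 27025 genes, whether or not they were tested here. Those of other endothelial genes covered 83 of the 120 tested. The shares were thus not matched for expression. Each motif was counted on its own, whether or not it shared bases with another. Base composition differed among the 4 windows, with 70.4% G and C and 23 CpG pairs for Flt1 against 51.2% and 2 CpG pairs for Tek, beside a median of 52.4% and 6 over all windows. These matches describe the letters only.

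The remaining members encode secreted and membrane-anchored proteins. Vwf (chr6:125546774-125686679, forward strand) encodes von Willebrand factor, which endothelial cells store and release to bind platelets. It had 341, 320.4 and 335 scaled reads in Input and 1482, 1548 and 784 in Positive, with log2 ratios of 2.12, 2.27 and 1.23. Its Input libraries were the tightest of the 10 genes relative to their mean, and Vwf was the only member whose highest Positive library was that of animal 207. Ly6c1 (chr15:75044018-75048830, reverse strand) encodes a small lipid-anchored surface protein of brain endothelium. Its scaled reads were 198, 158 and 164 in Input and 908, 672 and 415 in Positive, with a mean log2 ratio of 1.87 ± 0.47 (SD, n = 3). Ly6c1 and Ly6c2, a monocyte gene, are near-identical copies, so that reads may be split between them. Ly6c2 had 12.2, 7.52 and 2.1 scaled reads in Input and 24.7, 22.3 and 20.8 in Positive, far below Ly6c1 in every library. Pltp (chr2:164839518-164857711, reverse strand) encodes the phospholipid transfer protein, a lipid carrier that other cell types also make. It had 1032, 936 and 941 scaled reads in Input and 2289, 1733 and 1161 in Positive. Pltp had the lowest ratio of the 10 genes in all 3 animals, at 1.15, 0.89 and 0.30 on the log2 scale.

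**Figure D1:**
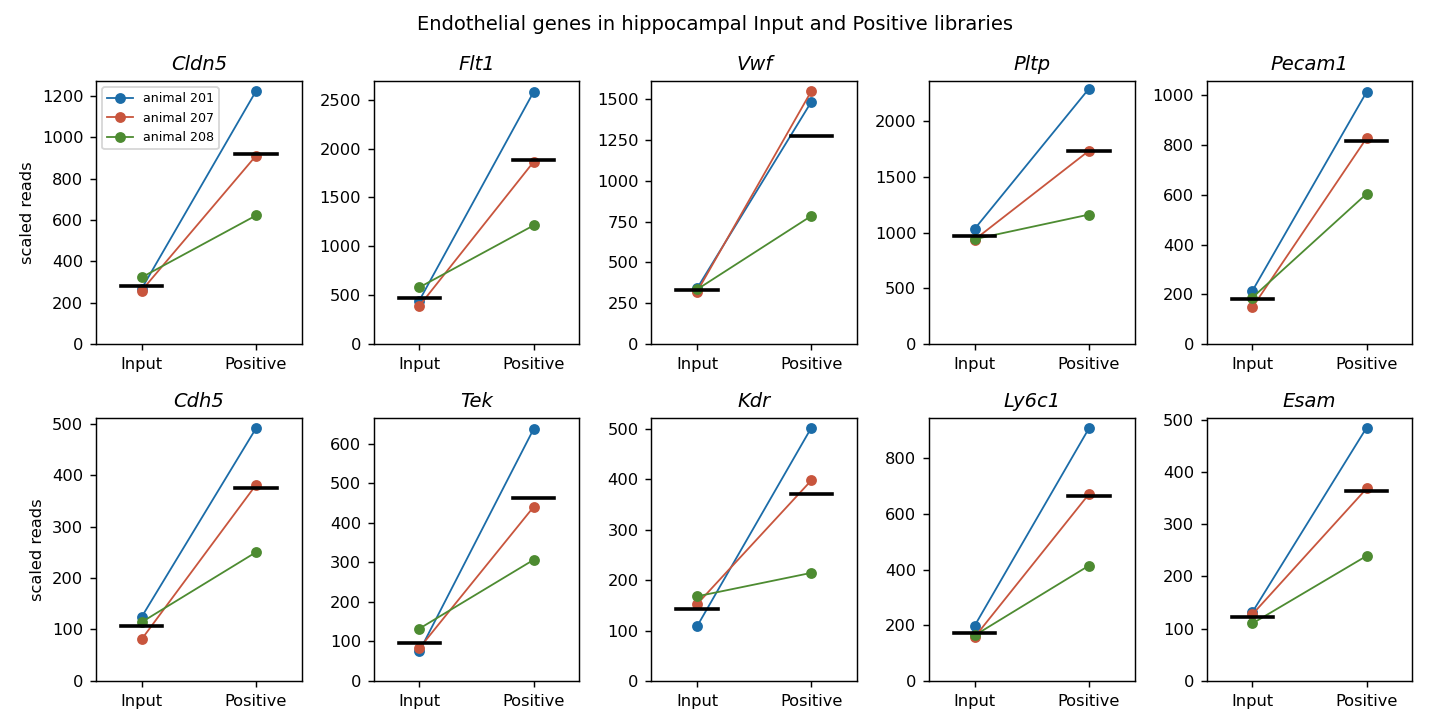
Scaled reads (y axis, linear from 0, a scale of its own in each panel) of the 10 endothelial genes in the Input and Positive library of each animal, with a line joining the libraries of an animal and a black bar at the mean of 3 libraries. Every Positive point lies above every Input point of its gene, and the line of animal 208 is the flattest in all 10 panels.

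The gap between the fractions varied with the animal. The median log2 ratio over the 10 genes was 2.19, 2.15 and 1.12 in animals 201, 207 and 208, a mean of 1.82 ± 0.61 (SD, n = 3). In animal 201 the ratios ran from 1.15 (Pltp) to 3.08 (Tek), in animal 207 from 0.89 (Pltp) to 2.48 (Pecam1) and in animal 208 from 0.30 (Pltp) to 1.69 (Pecam1). The ratio was lowest in animal 208 for 10 of the 10 genes, and over all genes tested it was lowest there for 40.4%. The Positive library of animal 208 held the fewest scaled reads of the 3 for all 10 genes (44.2% over all genes tested), and that of animal 201 the most for 9 of the 10 (31.2% over all genes tested). The Input libraries had no such order: their summed scaled reads over the 10 genes were 2938, 2656 and 3055, against 11613, 9145 and 5812 in the Positive libraries.

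Levels of different genes were compared per length, as scaled reads per kilobase of merged exons. In Input the order was led by Pltp at 379 ± 21.2 (SD, n = 3 for this and the next values), Cldn5 at 200.3 ± 24.4 and Ly6c1 at 103 ± 13.1 scaled reads per kilobase. The ranges of these 3 genes did not overlap with each other or with those below. From there the order ran Esam, Flt1, Pecam1, Cdh5, Vwf, Tek and Kdr, from 42.8 ± 3.97 to 15.8 ± 3.43, and each neighbouring pair overlapped in range, so that their order is not resolved by 3 animals. In Positive the same 3 genes led, with Pltp at 674 ± 220.2 and Cldn5 at 649 ± 212 now overlapping and Ly6c1 at 397 ± 147 overlapping with Cldn5. A gap separated Ly6c1 from Flt1 at 139.8 ± 50.6, and the other members followed in overlapping steps down to Kdr at 41.2 ± 16.2, the lowest mean per length in both fractions. Per length, mean VEGF receptor 1 RNA was thus above mean VEGF receptor 2 RNA in both fractions, and the library ranges of the 2 receptors did not overlap in either.

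**Figure D2:**
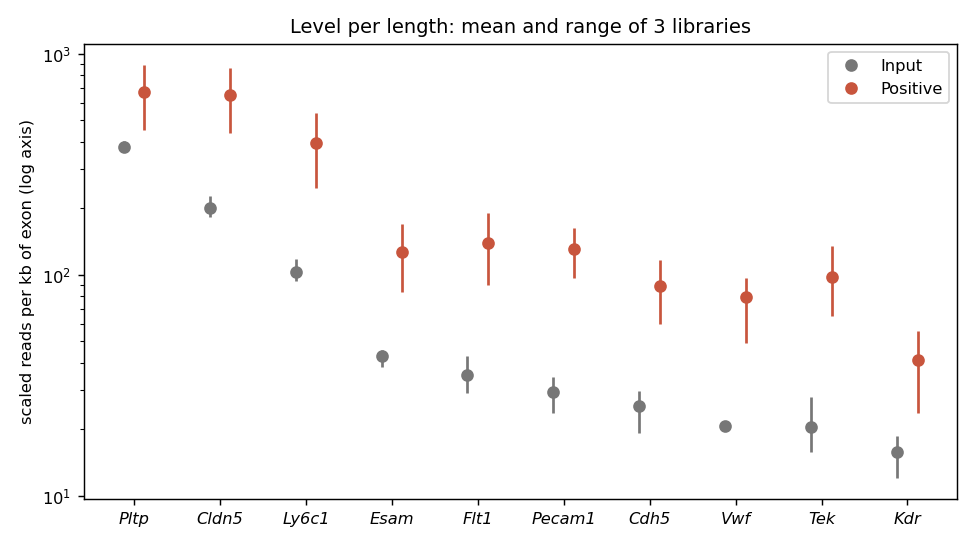
Scaled reads per kilobase of merged exon (log axis) of the 10 endothelial genes in Input (grey) and Positive (red), points at the mean and lines from the lowest to the highest of 3 libraries. Pltp, Cldn5 and Ly6c1 stand above the other 7 genes in both fractions, and neighbouring lines among the lower 7 overlap.

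A list of 127 further genes of endothelial cells is described beside the members, of which 120 were tested and 7 were not analysed here (Slc19a3, Aplnr, Esm1, Selp, Sele, Myct1 and Gpihbp1). Like all lists here, it was chosen with earlier results of these data known. Neither its counts nor those of its parts are therefore an independent check of the members. Of the 120, 83 rose, 7 fell and 30 did not pass the threshold of an edgeR adjusted p under 0.05. Over all 15344 genes tested, 46% passed, 24% as higher and 22% as lower. A gene was tested where all 3 libraries of Input, of Positive or of both had over 20 scaled reads. Of the 120 genes, 6 reached this only in Positive and so could hardly have been called lower (Edn1, Icam2, Procr, Sox7, Gja5 and Bmx), and among the other 114, 77 rose and 7 fell, with a median of 0.85. All 10 members had over 20 scaled reads in every Input library. The median log2 fold change of the 120 genes was 0.91, beside -0.01 over all genes. Many of these genes are also used by other brain or immune cells: of the 51 tested genes not marked as shared, 43 rose, 1 fell and 7 did not pass, with a median of 1.46 (37 of 45 rose and 1 fell, with a median of 1.41, when the same 6 genes were left out), and of the 69 marked as shared, 40 rose and 6 fell, with a median of 0.59. Among named genes that rose, those marked as shared include Tjp1, Jam2, Slc2a1, Eng, Nrp1, Pdgfb, Ltbp4, Cd34, Podxl, Ly6e, Epas1, Cavin1 and Lef1. As among the 10 genes, the median ratios of the 120 were lowest in animal 208, at 1.21, 1.01 and 0.48 in animals 201, 207 and 208. Without the Positive library of animal 208, 93 of the 120 rose, and without that of animal 201, 67 did.

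Of the other junction genes, 6 of 8 rose and 0 fell. Ocln, the tight junction protein occludin, had 167, 186 and 197 scaled reads in Input and 299, 345 and 246 in Positive, a log2 fold change of 0.70 ± 0.15 (SE, edgeR adjusted p = 0.00244). Tjp1, which encodes the scaffold ZO-1, and Jam2, a junctional adhesion molecule, rose by 1.27 and 0.90 on the log2 scale. F11r, a junctional adhesion molecule that leukocytes also carry, rose most in this group, by 3.60.

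Of 15 transporters and receptors of the blood-brain barrier, 10 rose and 1 fell. Slc2a1, the glucose transporter GLUT1, had 1107, 1089.8 and 1056 scaled reads in Input and 3591, 3024 and 1840.5 in Positive, a log2 fold change of 1.38 ± 0.18 (SE, edgeR adjusted p = 4.13e-05). Abcb1a, the drug efflux pump P-glycoprotein, and Slco1a4, an organic anion transporter, rose by 2.13 and 1.59, and a further efflux pump, Abcg2, by 1.18; these 3 were chosen for naming after their values were seen. The barrier lipid transporter Mfsd2a and the anion transporter Slc22a8, also chosen afterwards, did not pass, with log2 fold changes of 0.05 (edgeR adjusted p = 0.844) and -0.08 (edgeR adjusted p = 0.78). Slco2b1, which microglia also express, had the highest value, 4.18, and Slc3a2, a subunit of amino acid transporters in many cells, rose by 0.59. Tfrc, the transferrin receptor, fell, with a log2 fold change of -0.32 ± 0.09 (SE, edgeR adjusted p = 0.0114), and it did not pass without the Input library of animal 208 (-0.25, edgeR adjusted p = 0.0755).

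Signalling receptors of endothelium rose in 12 of 19 cases and fell in 1. Ptprb, the phosphatase VE-PTP that acts on TIE2 and VE-cadherin, had 362, 267 and 325 scaled reads in Input and 1789.9, 1326 and 792 in Positive, a log2 fold change of 2.04 ± 0.23 (SE, edgeR adjusted p = 1.26e-05). Eng, the TGF-beta co-receptor endoglin, which is marked as shared, rose by 2.25. Tie1, the sister receptor of TIE2, rose by 2.14, Acvrl1, the receptor ALK1, by 2.08, Adgrf5, an adhesion G protein-coupled receptor, by 1.96 and Flt4, VEGF receptor 3, by 1.48; these 4 were picked once their values were known. The VEGF co-receptor Nrp1 rose by 0.50. The sphingosine 1-phosphate receptor S1pr1, which astrocytes also express, had -0.02 (edgeR adjusted p = 0.935), and Ramp2, a receptor partner chosen after its value was seen whose exons overlap those of Vps25, had 0.10 (edgeR adjusted p = 0.37). Unc5b, a netrin receptor, fell, with 584, 570.0 and 497 scaled reads in Input and 307, 241 and 243 in Positive and a log2 fold change of -1.06 ± 0.13 (SE, edgeR adjusted p = 2.19e-05).

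Of 10 secreted factors and enzymes, 7 rose and 1 fell. Mmrn2, the endothelial matrix protein multimerin 2, rose most, from 20.4, 29.1 and 65 scaled reads in Input to 254, 163 and 101 in Positive, a log2 fold change of 2.18 ± 0.39 (SE, edgeR adjusted p = 5.93e-04). Its Input library of animal 208 was the highest of the 3, and the fitted change of 4.54-fold was 6.91-fold without that library, 2.83-fold without both libraries of animal 201 and 8.34-fold without both of animal 208, passing each time. Pdgfb, the growth factor that recruits pericytes, rose by 0.99, and Ltbp4, a TGF-beta binding protein, by 0.90. Dll4, a Notch ligand of arteries and sprouting tips, and Nos3, endothelial nitric oxide synthase, rose by 1.72 and 1.67. Egfl7, not marked as shared, whose exons overlap those of Gm20532 and Mir126a, did not pass (0.29, edgeR adjusted p = 0.106). Without the Positive library of animal 208 it passed (0.44, edgeR adjusted p = 0.00476). Dll4, Nos3 and Egfl7 were picked once their values were known. Jag2, a further Notch ligand, had 0.13 (edgeR adjusted p = 0.308). Apln, the peptide apelin, was the 1 gene not marked as shared that fell, with 295, 231 and 296 scaled reads in Input and 169, 139 and 134 in Positive and a log2 fold change of -0.90 ± 0.16 (SE, edgeR adjusted p = 4.87e-04).

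Surface adhesion proteins rose in 12 of 15 cases (10 of 13 without the pair tested only through Positive) and fell in 1. Cd34, a sialomucin of endothelium and blood progenitors, rose by 1.80 and Podxl, its relative podocalyxin, by 1.46. Icam1, which myeloid cells also express, rose by 2.77, and Icam2, chosen after its value was seen and tested only through Positive, had 15.3, 12.2 and 10.5 scaled reads in Input and 88.6, 78.1 and 39.5 in Positive. Ly6e and Ly6a, relatives of Ly6c1, rose by 1.31 and 1.99; Ly6a was chosen after its value was seen, and reads may be split between members of the Ly6 family. Plvap, a component of fenestrated endothelium that is low in barrier vessels, was chosen likewise and had -0.39 (edgeR adjusted p = 0.13), and without the Positive library of animal 208 it fell (-0.54, edgeR adjusted p = 0.041). Mcam, which mural cells also carry, fell, with a log2 fold change of -1.10 ± 0.19 (SE, edgeR adjusted p = 4.12e-04).

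Transcription factors had the highest share and median of the 9 groups, with 15 of 18 higher (14 of 17 without Sox7), 0 lower and a median log2 fold change of 1.65. Erg, an ETS factor of endothelium, had 60.7, 37.6 and 54.5 scaled reads in Input and 325, 234 and 158 in Positive, a log2 fold change of 2.23 ± 0.27 (SE, edgeR adjusted p = 2.22e-05). Sox17 and Sox18, factors of vessel development, rose by 1.68 and 1.89; these 3 genes were picked once their values were known. Fli1, Ets1 and Lmo2, which blood and immune cells also use, rose by 3.90, 2.76 and 2.13, and Epas1, the hypoxia factor HIF-2-alpha, by 0.65. Among intracellular and caveolar proteins, 13 of 16 rose and 1 fell. Cavin1, a coat protein of caveolae, rose by 0.82, Nherf2, a membrane scaffold, by 0.57 and Ctla2a, a protease inhibitor that overlaps other gene models on its strand, by 1.56. Car4, a carbonic anhydrase of capillaries, had 0.12 (edgeR adjusted p = 0.44).

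Of 9 markers of vessel zones, 5 rose and 1 fell, and among the 7 that passed the filter in Input, 3 rose (Sema3g, Gkn3 and Gja4, all markers of arteries) and 1 fell. Sema3g, an arterial semaphorin, had 55.3, 47.9 and 52.4 scaled reads in Input and 601, 439 and 325 in Positive, a log2 fold change of 3.13 ± 0.22 (SE, edgeR adjusted p = 1.43e-07), the largest among the 51 tested endothelial genes not marked as shared. Gkn3 and Gja4, which encodes a connexin of arterial endothelium, rose by 3.04 and 1.43, from at most 33.6 scaled reads in an Input library. Bmx and Gja5, tested only through Positive, had 16.3, 13.2 and 20.9 and 9.18, 14.3 and 18.9 scaled reads in Input against 141, 106 and 93.5 and 42.2, 52.8 and 37.4 in Positive; these 4 were picked once their values were known. The arterial genes Efnb2 and Hey1, which neurons and glia also express, had -0.11 and -0.21 (edgeR adjusted p = 0.342 and 0.0999). Of the venous genes, Ephb4, chosen after its value was seen, had 0.30 (edgeR adjusted p = 0.325; 0.55 and past the threshold without the Positive library of animal 208), and Nr2f2, which interneurons also use, fell, with a log2 fold change of -0.45 ± 0.09 (SE, edgeR adjusted p = 0.00157). No test compared arterial with venous genes, and 2 venous genes do not describe a class.

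Basement membrane genes, which endothelial, mural and glial cells share, had the lowest median of the 9 groups, 0.30, with 3 of 10 higher and 1 lower. Sparc, a matrix glycoprotein that microglia also make, had the highest value, 2.46. The type IV collagen chains Col4a1 and Col4a2 had 0.12 and 0.30 (edgeR adjusted p = 0.498 and 0.108), and the laminin chain Lamb1 fell, with a log2 fold change of -0.52 ± 0.10 (SE, edgeR adjusted p = 0.00111). With the animal as a replicate block, Col4a2 passed (0.28, edgeR adjusted p = 0.0281), and without the Positive library of animal 208 both collagen chains did (0.29 for Col4a1 and 0.48 for Col4a2).

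Of 7 ligands of the VEGF and angiopoietin families, 0 rose, 2 fell and 5 did not pass, a share of 28.6% lower beside 22% over all genes tested. Vegfa, the main ligand of VEGF receptor 2, had 1126, 1023 and 1142 scaled reads in Input and 607, 594 and 517 in Positive, a log2 fold change of -0.94 ± 0.09 (SE, edgeR adjusted p = 4.00e-06). Vegfb, a ligand of VEGF receptor 1, fell as well, with -0.86 (edgeR adjusted p = 9.01e-06). The other 5 did not pass: Vegfc had 0.51, Vegfd -0.51 and Pgf, placental growth factor, -0.53, while the angiopoietins Angpt1 and Angpt2 had -0.41 and -0.58, with edgeR adjusted p-values from 0.103 to 0.176. The groups overlapped between fractions in each of these 5 genes, and no library held more than 108 scaled reads of any of them. Angpt1 fell without the Positive library of animal 201 (-0.69, edgeR adjusted p = 0.0364), and Pgf without that of animal 208 (-0.78, edgeR adjusted p = 0.0196).

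**Figure D3:**
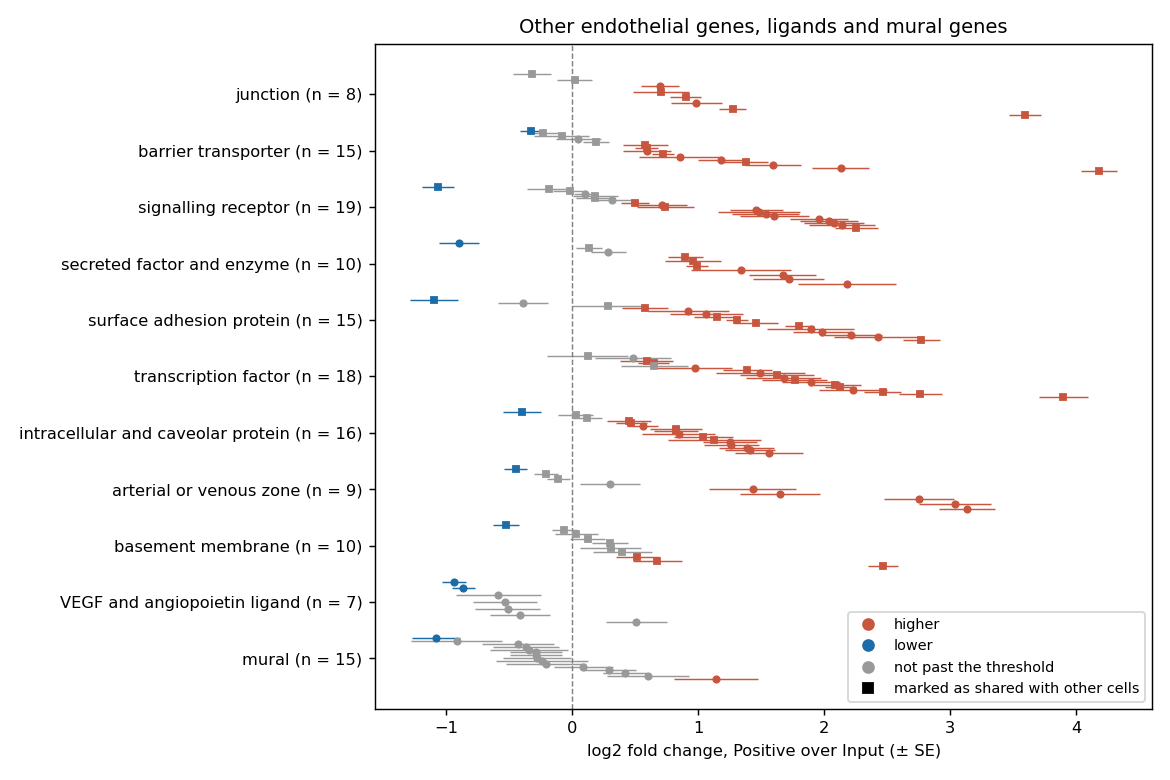
Log2 fold change of Positive over Input (x axis, ± SE, edgeR) of 120 other endothelial genes in 9 groups, 7 ligands and 15 mural genes, coloured by call, with squares for genes that other cells also use. Red points to the right of 0 prevail in all endothelial groups but the basement membrane and the vessel zones. In the zones 5 of 9 rose, 2 of them tested only through Positive, and 3 of the 7 that passed the filter in Input. Most ligand and mural points lie around or below 0.

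Markers of the other cells that a vessel or the bead fraction could carry are given beside these values. Of 15 mural genes, 1 rose and 1 fell, with a median log2 fold change of -0.28. Pericyte genes gave Pdgfrb -0.29, Rgs5 0.42 and Vtn -0.29, with edgeR adjusted p-values of 0.276, 0.0665 and 0.279. Rgs5 passed with the replicate block (0.38, edgeR adjusted p = 0.0416) and without the Positive library of animal 208 (0.65, edgeR adjusted p = 4.26e-05). Myh11, the smooth muscle myosin heavy chain, rose, from 67.3, 104 and 99.6 scaled reads in Input to 162, 329 and 108 in Positive, a log2 fold change of 1.14 ± 0.33 (SE, edgeR adjusted p = 0.0137), and did not pass without the Positive library of animal 207 (0.58, edgeR adjusted p = 0.0893) or the Input library of animal 201 (0.97, edgeR adjusted p = 0.0701). The proteoglycan Cspg4, which oligodendrocyte precursors also carry and which was named after its value was seen, fell by 1.08 on the log2 scale. The mural list had an animal order like that of the endothelial genes, with medians of 0.18, 0.01 and -0.85, and summed scaled reads of 3733, 3658 and 3758 in Input and 4652, 4057 and 2352 in Positive. The median of the 10 endothelial genes exceeded the mural median by 2.04 ± 0.0926 (SD, n = 3) in the same animals. Without the Positive library of animal 208, 4 of the 15 mural genes rose, and without that of animal 201, 4 fell, and a fit with the replicate block (the animal) gave 2 higher and 2 lower.

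Fibroblast genes fell in 6 of 8 cases and rose in 0, with the collagen Col1a2 at -1.16, decorin (Dcn) at -0.74 and Fmod at -1.10. All 5 erythroid genes tested fell, among them the beta-globin genes Hbb-bs and Hbb-bt and the alpha-globin gene Hba-a1, each with a near-identical copy that may share its reads, at -2.28, -2.34 and -2.21, and their summed scaled reads were 4191, 5531 and 3741 in Input and 668, 1441 and 686 in Positive. Of 3 platelet genes, Gp9, tested only through Positive, had 2.04, 5.64 and 2.1 scaled reads in Input and 143, 157 and 92.4 in Positive, Itga2b had -0.13 (edgeR adjusted p = 0.738), and Gp1bb, whose exons overlap Sept5, fell by 0.57 and lost this call without the Input library of animal 207 or 208 or the Positive library of animal 207 (-0.57, -0.50 and -0.41). Of 3 genes listed for monocytes, Ly6c2 was likewise tested only through Positive, and Itga4 had 0.18 (edgeR adjusted p = 0.299). Vcan fell, with -1.22, from a mean of 245 scaled reads in Input, where Ly6c2 had a mean of 7.29. Which cells gave the Vcan RNA was not tested. All 7 choroid plexus genes fell, led in abundance by Ttr, the thyroid hormone carrier, at -2.21, with Kl at -1.28 and Clic6 at -2.08. Their part in the result for the endothelial genes was not tested.

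Macrophage lists rose in full and differed from the endothelial genes in the animal that was highest, less so in the one that was lowest. All 8 border macrophage genes rose, 4 of them tested only through Positive, with Mrc1, Cd163 and F13a1 at 4.19, 4.01 and 4.48, and the Positive library of animal 207 was the highest for all 8 (36.5% over all genes tested). All 10 microglial genes rose, with C1qa, a complement subunit, at 4.61, and the Positive library of animal 207 was again the highest for all 10. As among the endothelial genes, animal 208 was lowest in ratio for 9 and in Positive reads for 9 of the 10 microglial genes. For the 8 border macrophage genes it was lowest for 5 and 6. Their medians were 3.74, 4.45 and 3.80 for border macrophages and 4.60, 4.88 and 4.42 for microglia in animals 201, 207 and 208, so that the microglial median of animal 208 was 0.18 below that of 201, while the endothelial median was 1.07 below it. The endothelial genes lay under the microglial markers by 2.81 ± 0.452 log2 units (SD, n = 3). Summed scaled reads of the microglial list were 5053, 5209 and 4879 in Input and 114932, 139784 and 95007 in Positive.

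Astrocyte genes had the animal order of the endothelial genes at a lower level: 0 of 8 rose and 4 fell, with medians of -0.14, -0.28 and -0.81. Their most abundant members were Gfap, with -0.41, Slc1a3, with -0.22 (edgeR adjusted p = 0.12), and Aldoc, with -0.16 (edgeR adjusted p = 0.384). Gfap passed with an edgeR adjusted p of 0.023 and did not pass without the Input library of animal 201, 207 or 208. Of 8 neuronal genes, 3 rose and 0 fell. They had the opposite animal order, with medians of -0.01, 0.14 and 0.34, and the Positive library of animal 208 was the highest for all 8 (32.3% over all genes tested). Gad1 and Gad2, the enzymes of GABA synthesis, rose, by 0.34 (edgeR adjusted p = 0.00298) and 0.55 (edgeR adjusted p = 2.17e-04), each higher in all 3 animals and both picked once their values were known. Snap25 had 0.21 (edgeR adjusted p = 0.116), Slc17a7 0.03 (edgeR adjusted p = 0.838) and Camk2a 0.30 (edgeR adjusted p = 0.0482), and Camk2a lost its call without any one Input library, without the Positive library of animal 208 (0.19), under total count scaling (0.23) and with the size factors of the authors (0.29). All 8 oligodendrocyte genes fell, with Mobp and Mal at -1.61 and -2.25, and animal 208 was lowest in ratio and in Positive reads for 7 of them each. The part of glial and neuronal RNA in the animal order of the endothelial genes was not tested.

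**Figure D4:**
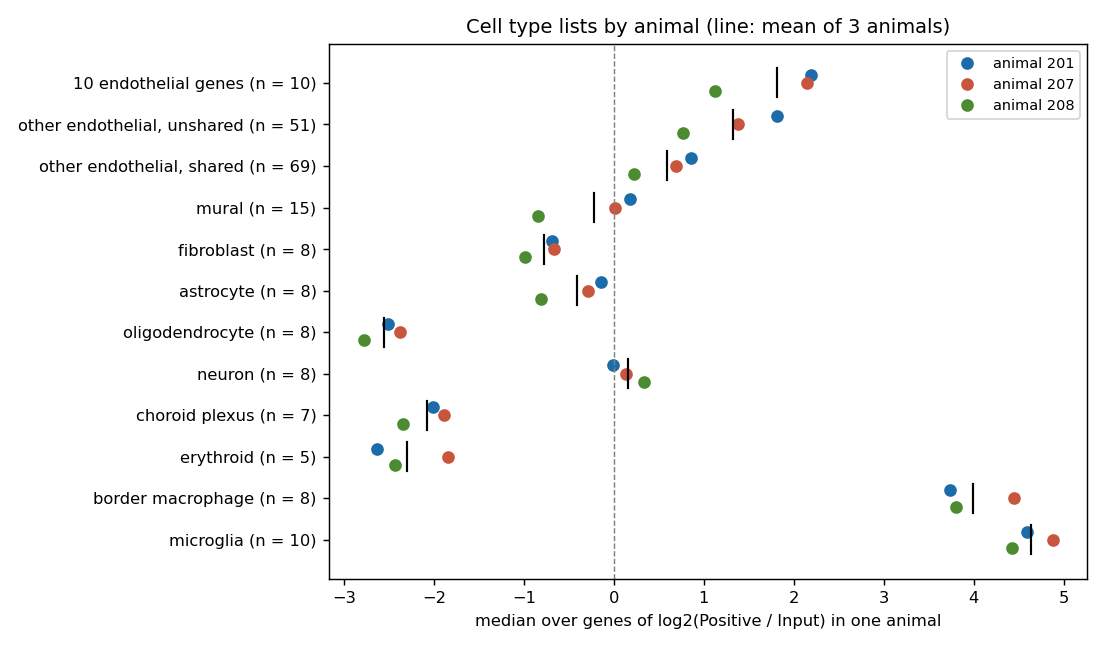
Median over the genes of a list of the log2 ratio of Positive over Input (x axis), 1 point per animal and a line at the mean of 3 animals, for the 10 endothelial genes and 11 other lists with the number of genes tested. The endothelial points lie right of 0 in all 3 animals with animal 208 lowest, below the macrophage lists and above the mural list.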

How the data were processed

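RNA of 3 Input and 3 Positive libraries was compared. The authors trimmed the reads, aligned them by strand to mm10 in Strand NGS and counted them per gene, and the deposited raw columns hold expected counts (estimated counts, not all whole). A second set of deposited columns holds normalized log2 values, centred by the authors on the median of Input, after DESeq scaling per the submitters' notes, and served only to recover size factors for an alternative. The authors kept genes that reached 20 reads in all libraries of Input, of Positive or of both, so that a gene low in Input could enter through Positive alone. Expected counts were rounded, and all genes were fitted by the quasi-likelihood method of edgeR 4.0.16 (R 4.3.3), unpaired as in the study, with RLE scaling and Benjamini-Hochberg adjustment over 15344 genes with over 20 scaled reads in every library of a fraction. DESeq2 1.42.0 was an alternative. An adjusted p under 0.05 was called. The labels pair libraries by animal, and deviations of the same animal correlated at 0.273, 0.0847 and 0.150. Reads have no molecular identifiers, so depth covers counting error only. Simulated Positive against Input data held 15000 tested genes, 199 of them changed by 2-fold or 4-fold. Of the 2-fold changes 88.9% were called and of the 4-fold changes 100%, and 6.93% of calls were false. With 46% of genes called in the real data, these rates need not carry over. Exon lengths came from GENCODE vM21.

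The endothelial genes and all lists were chosen with earlier results of these data known. Genes were named by a rule: all members and ligands, of each group the 3 highest in mean, the largest and smallest significant change and any gene against the direction, and of each other cell list up to 3 of the highest mean and any against its median. Some genes that the rule took are left out of the text. The alternatives changed scaling, filter, test, pairing, pseudocount, libraries and membership.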

Additional observations from a re-analysis of the deposited data

How the results depend on the processing

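The mean over animals of the median log2 ratio of the 10 endothelial genes stayed within 1 SD under all scalings, filters, pseudocounts (0.5 and 5) and omissions tried, with 1.64 to 2.17 when 1 library was left out, highest without either library of animal 208; DESeq2 and the block give no value per animal. Among other endothelial genes, 83 rose and 7 fell. Higher counts were 83 with TMM, 79 with total counts, 63 of 95 tested at 100 or more scaled reads, 80 with DESeq2 and 84 in a fit with the replicate block. Leaving out 1 library gave 67 to 93 higher and 5 to 9 lower. Restricted to genes not marked as shared, the counts were 43 and 1, with 26 of 32 tested higher at 100 or more scaled reads, and 36 to 46 higher and 1 to 2 lower when 1 library was left out. Mural counts of 1 higher and 1 lower moved most: 2 lower under total counts, 2 higher and 2 lower with the replicate block, 0 to 4 higher and 1 to 4 lower when 1 library was left out. In alternatives chosen after seeing the data, 2 mural genes were lower with the size factors of the authors, and leaving out both libraries of an animal gave 0 higher and 2 lower without 201, 0 higher without 207 and 3 higher without 208. Beside Col4a2, Rgs5 passed with the block (0.38, edgeR adjusted p = 0.0416), and the block changed no other call among the genes named. Genes near 0 changed sign without passing under single settings. Under total counts, Mfsd2a had -0.027 and Slc17a7 -0.046. Without both libraries of an animal, Mfsd2a had -0.050 (animal 201), Itga4 -0.035 (animal 207), Slc17a7 -0.079, Slc22a8 0.19, S1pr1 0.17 and Itga2b 0.16 (animal 208). Across fits without 1 library, Mfsd2a ran from -0.095 to 0.21, Slc22a8 from -0.29 to 0.17, S1pr1 from -0.17 to 0.16, Col4a1 from -0.011 to 0.29 (the latter past the threshold), Itga2b from -0.39 to 0.025 and Slc17a7 from -0.050 to 0.13. Lef1 (0.59, edgeR adjusted p = 0.0365) and Cavin3 (-0.40, edgeR adjusted p = 0.0452) lost their calls without several single libraries, Gja4 (1.09) without animal 201 and Ly6c2 (1.64) without animal 207. Without the Positive library of animal 208, Rgs5 (0.65) rose and Hey1 (-0.27) fell, and without that of animal 201, Pdgfrb (-0.53), Vtn (-0.60), Slc1a3 (-0.33) and Aldoc (-0.34) fell. Gp9 moved from 5.25 to 5.90 without the Input library of animal 207. In all, 43 single-gene values lost a call and 21 gained 1. The causes were not tested. With 3 animals, orders between neighbouring levels are not resolved, and genes that missed the filter in both fractions were not seen.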

Other observations

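Over 11943 genes outside the lists whose mean reached 100 scaled reads, the 5 whose log2 ratios in the 3 animals lay nearest to the median profile of the 10 endothelial genes were H2-DMa, Gbp5, Slc40a1, Gbp2 and Tgfbi, at Euclidean distances of 0.225 to 0.299. H2-DMa, which encodes a chain of the antigen-loading protein of MHC class II, had log2 ratios of 2.02, 2.16 and 1.27 in animals 201, 207 and 208. Slc40a1, the iron exporter ferroportin, had 2.16, 2.36 and 1.31. Gbp5 and Gbp2, guanylate-binding proteins induced by interferon, had 2.29, 2.14 and 1.38, and 1.98, 1.95 and 1.12. Tgfbi, a matrix protein induced by TGF-beta, had 2.03, 2.31 and 0.93. Likeness over 3 animals is a description.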
